A study of Mus musculus with 6 samples.

Results

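The genes described here are 10 imprinted genes of the growth-regulating network, Mest, Plagl1, H19, Dlk1, Meg3, Peg3, Cdkn1c, Grb10, Ndn and Nnat, out of 20239 named genes in the series. They were taken by symbol, each has 1 probe set, and all 10 were measured. They were chosen with the PDGF-BB against control changes of these same arrays known, so their changes are given as a description and carry no p-value. Total RNA from isolated mouse pericytes of the C57BL/6 background was hybridised to 1-colour arrays, 3 from cells given PDGF-BB (100 ng/ml, 5 days) and 3 from control cells. Pericytes are the mural cells wrapped around capillaries, and PDGF-BB, a dimer of platelet-derived growth factor B chains, is the ligand by which endothelial cells recruit them through PDGFR-β. The labels number the arrays 1 to 3 in each group but name neither the tissue of origin nor whether the arrays came from separate isolations, so any p-value reflects only how far these 6 arrays scatter, a scatter that could be technical.

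An imprinted gene is expressed mainly from the copy inherited from 1 parent, because methylation laid down in the egg or sperm marks control regions near it. Many imprinted genes act on fetal growth, and a number of them are co-expressed in embryonic and mesenchymal cells and switched down together as tissues stop growing after birth. In the mouse, the zinc finger protein encoded by Plagl1 (also called Zac1) acts on several other imprinted genes, Igf2, H19 and Cdkn1c among them. Of the 10 genes, Mest, Plagl1, Dlk1, Peg3, Ndn and Nnat are expressed from the paternal copy, and H19, Meg3, Cdkn1c and, in most tissues, Grb10 from the maternal copy.

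The promoters of Mest and Plagl1, whose levels changed most, are shown with that of Peg3, whose level differed more between array numbers than between treatments. They are 300-base windows from RefSeq (GRCm38.p6), 250 bases before to 50 after a start, 5′ to 3′. Capitals mark TGCCGC, the hexamer that the imprint-keeping protein ZFP57 reads when methylated, and GGGGCCCC, a palindrome bound by PLAGL1. Both strands were searched, a hexamer on the other strand reading GCGGCA here, and no marked stretches of the 2 kinds overlap here.
Mest, chr6:30737800-30738099, plus strand: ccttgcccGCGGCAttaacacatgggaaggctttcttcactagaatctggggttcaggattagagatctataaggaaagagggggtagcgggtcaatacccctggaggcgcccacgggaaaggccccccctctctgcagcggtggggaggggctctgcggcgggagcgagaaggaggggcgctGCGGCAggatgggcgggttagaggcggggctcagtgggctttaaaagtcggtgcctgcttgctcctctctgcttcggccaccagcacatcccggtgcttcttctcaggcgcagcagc
Plagl1, chr10:13090582-13090881, plus strand: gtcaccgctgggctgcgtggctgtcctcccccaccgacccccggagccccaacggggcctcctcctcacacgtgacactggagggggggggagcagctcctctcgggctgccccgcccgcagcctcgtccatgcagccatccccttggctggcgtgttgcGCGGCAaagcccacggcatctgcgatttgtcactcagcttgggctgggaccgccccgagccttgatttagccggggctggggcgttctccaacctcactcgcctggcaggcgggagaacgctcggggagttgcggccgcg
Peg3, chr7:6730370-6730669, minus strand: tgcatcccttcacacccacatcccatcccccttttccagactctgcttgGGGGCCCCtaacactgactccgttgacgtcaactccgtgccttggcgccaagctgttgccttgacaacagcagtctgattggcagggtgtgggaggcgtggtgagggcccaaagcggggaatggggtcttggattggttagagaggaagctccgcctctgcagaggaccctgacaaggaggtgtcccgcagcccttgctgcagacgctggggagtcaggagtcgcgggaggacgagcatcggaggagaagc
The Mest window, 1 of 3 listed starts, held 17 CpG dinucleotides and 2 TGCCGC hexamers. That of Plagl1 held 26 CpG and 1 hexamer, and that of Peg3 held 13 CpG, no hexamer and 1 palindrome. Over all 32851 windows the median was 7 CpG, 11.6% held the hexamer and 1.08% the palindrome. RefSeq listed 12 windows for 8 of the 10 genes (none matched for H19 and Cdkn1c), of which 6 held the hexamer and 1 the palindrome. The hexamer contains a CpG, and these counts were not set against windows of like CpG content. The upstream Mest window held 8 CpG and 0 hexamers. The 2 downstream Mest windows overlap almost wholly, so they are not separate observations. A match describes these letters only and shows no binding.

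Mest and Plagl1 fell with PDGF-BB and had the largest mean changes of the 10 genes, in an order that turned with control array 1. Mest (Entrez gene 17294) encodes a hydrolase-like protein of mesoderm and growing adipose tissue. It read 7.58, 7.48 and 7.93 log2 units in the PDGF-BB arrays numbered 1, 2 and 3, against 11.32, 9.94 and 9.13 in the control arrays. The PDGF-BB values lay close together and all under the lowest control value, whereas the control arrays spread over more than 2 log2 units. The log2 change was -2.47 (95% interval -3.64 to -1.30), 5.52-fold lower with PDGF-BB. The PDGF-BB mean of 7.66 lay just above 7.47, the 90th percentile of the mean levels of 17 blood cell markers taken as absent. In cells pooled for RNA, fewer cells expressing a gene and less RNA per cell cannot be told apart.

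Plagl1 (Entrez gene 22634), the zinc finger factor, read 8.89, 8.82 and 9.58 in the PDGF-BB arrays, against 10.80, 11.52 and 11.46 in the control arrays. The groups lay more than 1 log2 unit apart with no overlap. The log2 change was -2.16 (95% interval -2.77 to -1.55), 4.48-fold lower with PDGF-BB, and it was -1.91, -2.71 and -1.88 in the pairs numbered 1, 2 and 3. It was larger in size than the Mest change in pairs 2 and 3, where Mest differed by -2.46 and -1.20, and smaller in pair 1, where Mest differed by -3.73. Without control array 1 the log2 change was -2.39 for Plagl1 and -1.87 for Mest.

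Of the 10 genes, 2 fell and 0 rose in limma at a Benjamini-Hochberg adjusted p under 0.05, where 11.4% of all named genes fell and 10.1% rose. With the array number as a block, 5 fell and 0 rose, where 12.5% of all genes fell and 10.9% rose: Grb10, Ndn and Nnat joined Mest and Plagl1. The median log2 change of the 10 was -0.52, against -0.02 over all named genes. Leaving out PDGF-BB array 1 ended the Mest call, at a log2 change of -2.43, and 1 gene was then called. Leaving out control array 3 gave 4 calls, Grb10 (log2 change -0.69) and Nnat (-1.34) being added. Leaving out control array 1 gave 3, Cdkn1c (log2 change -0.30) being added. These counts describe genes picked from this contrast and say nothing further about them.

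**Figure D1:**
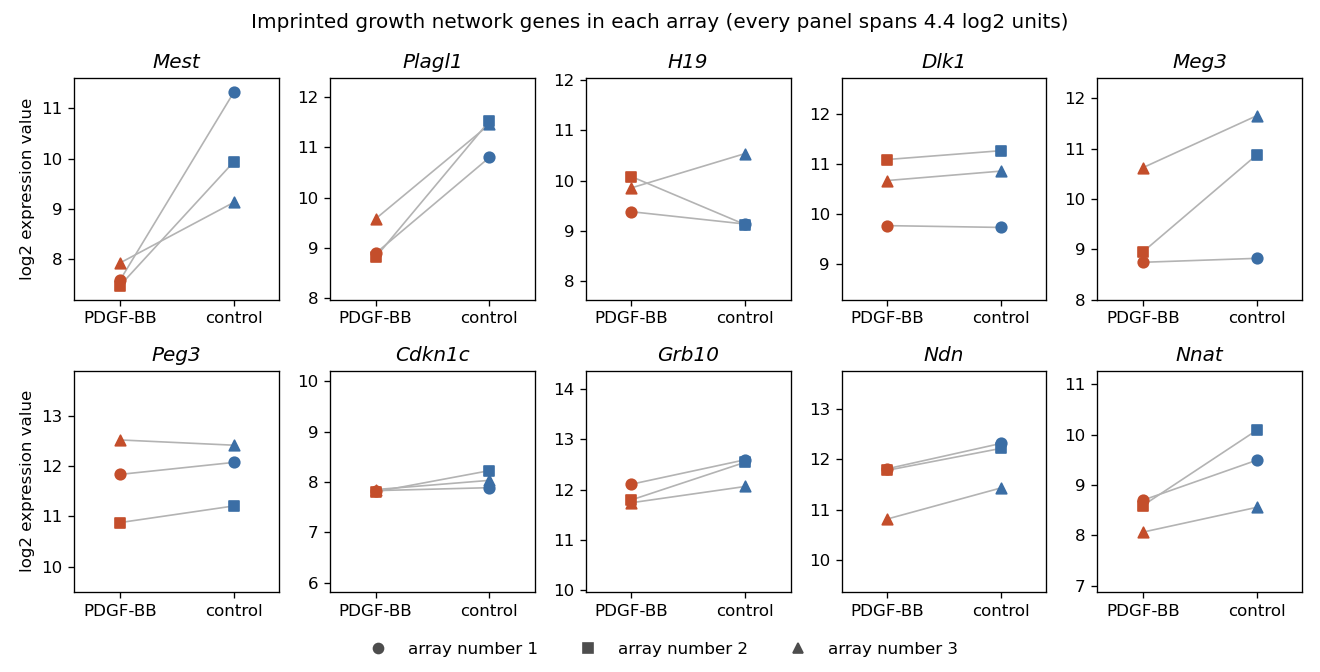
Log2 expression value (vertical axis, each panel spanning the same range) of the 10 genes in the 3 PDGF-BB arrays (left, red) and 3 control arrays (right, blue), with lines joining arrays of the same number. Mest and Plagl1 lie lower in every PDGF-BB array, while the lines of Dlk1 and Peg3 run nearly level and far apart.

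Grb10 and Nnat were lower in each numbered pair. Grb10 (Entrez gene 14783) encodes an adaptor that binds activated insulin and IGF1 receptors and restrains growth. It read 12.11, 11.79 and 11.74 in the PDGF-BB arrays, against 12.59, 12.54 and 12.06 in the control arrays, so that only control array 3 lay inside the range of the PDGF-BB arrays. Grb10's log2 change was -0.52 (95% interval -0.90 to -0.14, and -0.75 to -0.29 with the block). Nnat (Entrez gene 18111), a small proteolipid of the endoplasmic reticulum, read 8.70, 8.59 and 8.06 in the PDGF-BB arrays, against 9.49, 10.08 and 8.55 in the control arrays. The control array numbered 3 was again the low one and overlapped the PDGF-BB group. Nnat's log2 change was -0.93 (95% interval -1.80 to -0.05, and -1.38 to -0.48 with the block), and it was -0.57 without control array 2.

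Ndn showed the most even pairwise difference of the 10 genes. Ndn (Entrez gene 17984) encodes necdin, a MAGE family growth suppressor known from neurons and muscle. It read 11.81, 11.78 and 10.81 in the PDGF-BB arrays, against 12.31, 12.21 and 11.43 in the control arrays. Array number 3 was the low one in both groups, and its control value lay below the other two PDGF-BB values. The pairs differed by -0.50, -0.44 and -0.62 log2 units, and the mean change of -0.52 had a 95% interval of -1.30 to 0.26 without the block and -0.69 to -0.35 with it. Leaving out 1 array moved the Ndn change between -0.80 (without control array 3) and -0.19 (without PDGF-BB array 3).

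Cdkn1c, the CIP/KIP family inhibitor p57, which blocks cyclin-dependent kinases (Entrez gene 12577), was dim and differed little. It read 7.83, 7.80 and 7.85 in the PDGF-BB arrays, against 7.89, 8.23 and 8.03 in the control arrays. The groups did not overlap, but the log2 change was only -0.22 (95% interval -0.43 to -0.01), and all 6 values lay less than 1 log2 unit above the level of markers taken as absent. It passed neither fit, and the change was -0.13 without control array 2. Of the 10 genes, 3 (Mest, Plagl1 and Cdkn1c) had every PDGF-BB array below every control array, and none the reverse, where 20.6% of all named genes were lower in this way, and 37.6% did not overlap in either direction. Of the 10, 7 were lower and none higher in all 3 numbered pairs, against 29.9% and 23.2% of all named genes.

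**Figure D2:**
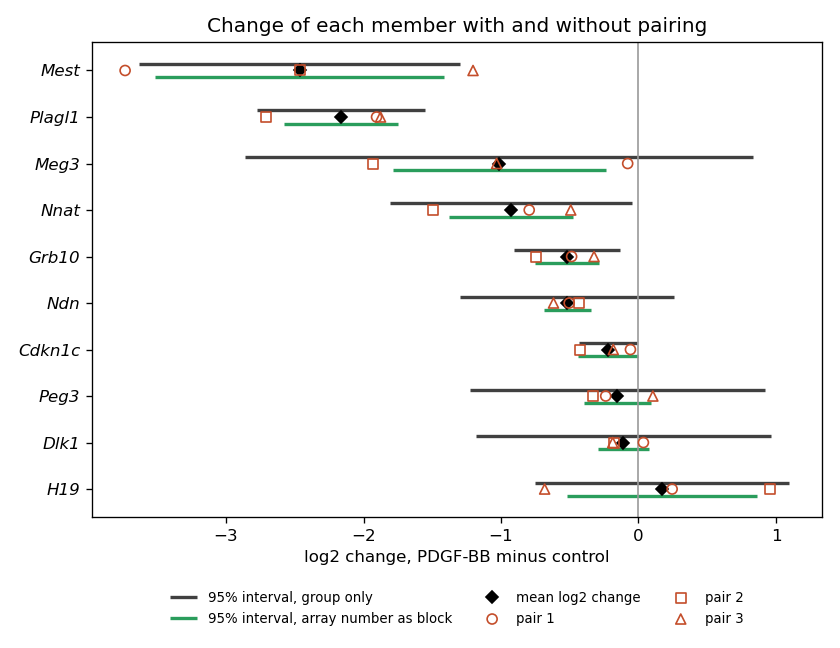
Log2 change, PDGF-BB minus control (horizontal axis), of each gene: diamonds are means, open symbols the 3 numbered pairs, and bars the 95% intervals without (black) and with (green) the array number as a block. The intervals of Dlk1, Ndn and Peg3 narrow most in proportion with the block.

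Dlk1 and Peg3 varied between array numbers and hardly between treatments. Dlk1 (Entrez gene 13386) encodes a membrane protein related to NOTCH ligands that keeps preadipocytes undifferentiated. It read 9.77, 11.09 and 10.67 in the PDGF-BB arrays, against 9.74, 11.26 and 10.86 in the control arrays. Number 1 was low and number 2 high in both groups, and the treatment difference within a pair was never above 0.19 log2 units in size. Its log2 change was -0.11, with a 95% interval of -1.18 to 0.97 without the block and -0.29 to 0.08 with it. Leaving out 1 array moved it between -0.55 (without control array 1) and 0.26 (without PDGF-BB array 1).

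Peg3 (Entrez gene 18616) encodes a large zinc finger protein, also called PW1, that marks stem and progenitor cells of several mouse tissues. It read 11.84, 10.88 and 12.52 in the PDGF-BB arrays, against 12.07, 11.21 and 12.42 in the control arrays. Here number 2 was the low one in both groups and number 3 the high one, so the order differed from that of Dlk1. Its log2 change was -0.15 (95% interval -1.23 to 0.92, and -0.40 to 0.09 with the block). It was -0.54 without PDGF-BB array 3 and turned to 0.28 without PDGF-BB array 2 and 0.10 without control array 3.

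The 2 long non-coding RNAs, H19 and Meg3, differed in size or sign from pair to pair. H19 (Entrez gene 14955), transcribed beside Igf2 from the maternal copy and a host of miR-675, read 9.38, 10.08 and 9.86 in the PDGF-BB arrays, against 9.14, 9.13 and 10.54 in the control arrays. It was higher in pairs 1 and 2 and lower in pair 3, and the log2 change of 0.17 had a 95% interval of -0.75 to 1.09. The change was -0.06 without control array 1 or 2 and 0.64 without control array 3. Meg3 (Entrez gene 17263), the maternally expressed RNA next to Dlk1, read 8.74, 8.95 and 10.62 in the PDGF-BB arrays, against 8.82, 10.87 and 11.65 in the control arrays. Its lowest value, in PDGF-BB array 1, and its highest, in control array 3, lay nearly 3 log2 units apart, and pair 1 showed almost no difference (-0.08) while pair 2 showed -1.93. The log2 change was -1.01 (95% interval -2.86 to 0.84, and -1.79 to -0.24 with the block), and Meg3 passed neither fit after adjustment. Without control array 3 it was -0.41, and without control array 1 it was -1.83.

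The sum of squares over the 6 arrays was split into the part between treatments, the part between array numbers and the rest. The array number held 98.5% of it for Dlk1, 95.9% for Peg3, 72.9% for Ndn, 69.9% for Meg3 and 55.6% for H19. Treatment held 91.3% for Plagl1, 78.1% for Mest, 61.7% for Grb10, 55.6% for Cdkn1c and 47.6% for Nnat. Thus 5 of the 10 genes had 50% or more of their variation between array numbers, as 23.4% of all named genes did. No single number was low throughout: number 1 had the lowest mean for Plagl1, H19, Dlk1, Meg3 and Cdkn1c, number 2 for Peg3, and number 3 for Mest, Grb10, Ndn and Nnat. What a number shares is not stated in the labels, so isolation, culture and array cannot be told apart.

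**Figure D3:**
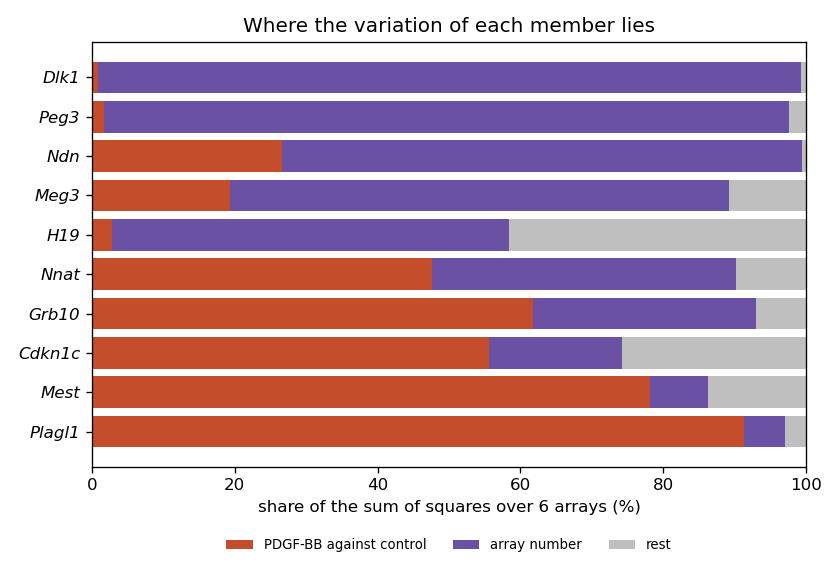
Share of each gene's sum of squares over the 6 arrays, in percent (horizontal axis), that lies between PDGF-BB and control (red), between array numbers (purple) and in neither (grey). Dlk1 and Peg3 are almost wholly purple, and Plagl1 and Mest mostly red.

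The spread within groups was wide for most of the 10 genes. Their pooled within-group standard deviation had a median of 0.612 log2 units, against 0.096 over all named genes, and 9 of 10 lay above the 90th percentile of 0.212, the exception being Cdkn1c. Meg3, at 1.27, was above 99.97% of named genes or level with them. The other 51 measured imprinted genes had a median of 0.108. Of them 36 had a mean above the level of markers taken as absent in either group, whereas all 10 genes did in each group. Lying above that level does not show expression, as 2 of the 17 markers taken as absent did so in each group. Cd3e, 1 of them, read 8.22 in PDGF-BB cells and 8.27 in control cells, above Cdkn1c in each group and Mest with PDGF-BB. The spread of the 36 alone was not examined. Of the 51, 7 lay above the 90th percentile, so a wide spread was not general in this list. Among those 7 were Slc38a4, an amino acid transporter, with a standard deviation of 0.794, and Peg10, a retrotransposon-derived gene, with 0.324, of whose variation 98.4% lay between array numbers.

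**Figure D4:**
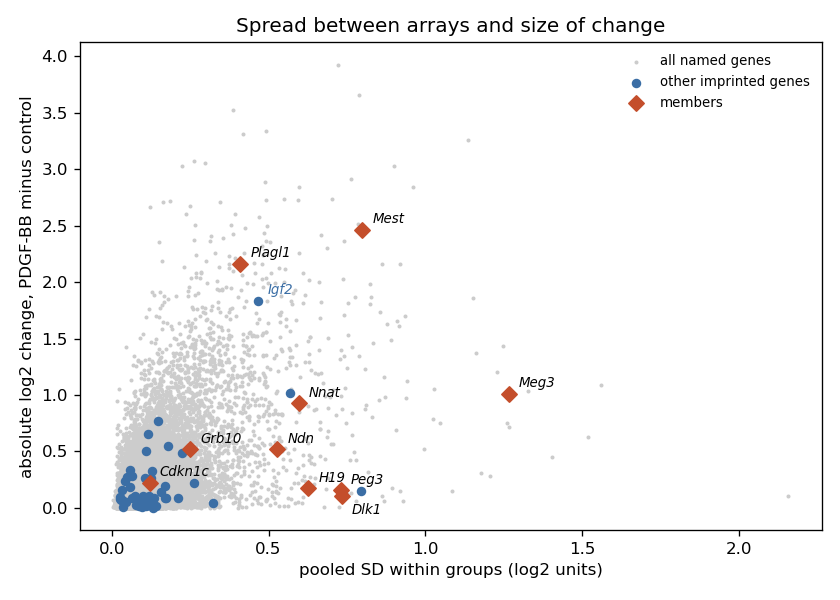
Pooled standard deviation within groups (horizontal axis, log2 units) against the absolute log2 change (vertical axis) for all named genes (grey), 51 other imprinted genes (blue) and the 10 genes described (red diamonds). Meg3 lies farthest right of the diamonds, at 1.27, and Igf2 stands apart from the other blue points.

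The other imprinted genes, from a list of 60 written from textbook knowledge, were read from the same limma fit over all named genes. The list was drawn up with earlier results of these data known and leaves out the 10 genes. Its counts and median are therefore only a description. Of 51 measured, 4 rose and 6 fell (19.6%, where 21.5% of all named genes were called), and their median log2 change was -0.03, against -0.02 over all named genes. Among the 36 with a mean above the level of markers taken as absent in either group, 3 rose and 6 fell. With the array number as a block 7 of the 51 rose and 6 fell, where 23.4% of all named genes were called. Among genes listed as paternally expressed 0 rose and 2 fell of 21, and among those listed as maternally expressed 4 rose and 4 fell of 28. Over all named genes 10.1% rose and 11.4% fell. Which parental copy these cells expressed was not measured. The number of the 51 that rose was 2 without control array 1 or any 1 PDGF-BB array, and 1 without control array 2.

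Igf2, the paternally expressed insulin-like growth factor 2 and the best known growth gene of the network, fell. It read 9.15, 8.99 and 9.10 in the PDGF-BB arrays, against 10.97, 10.23 and 11.53 in the control arrays. Every PDGF-BB value lay more than 1 log2 unit below the lowest control value. Igf2 was thus 3.56-fold lower with PDGF-BB (log2 -1.83, with -2.52 to -1.14 as 95% interval, and an adjusted p = 0.0058 in limma), and the call held in all 6 fits that leave out 1 array (adjusted p = 0.003 to 0.025). Igf2 and H19 are neighbours that share enhancers but are expressed from opposite parental copies. Their log2 changes stood at -1.83 and 0.17 on the same arrays, and the difference between the 2 was not tested. Igf2r, the maternally expressed receptor that clears IGF2, read 12.52, 12.45 and 12.56 in the PDGF-BB arrays, against 12.27, 12.26 and 12.30 in the control arrays. That change was small (log2 change 0.23, 95% interval 0.10 to 0.37, adjusted p = 0.026), and the fits without any 1 control array, or without PDGF-BB array 1 or 3, lost it (0.059 to 0.080).

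Among the other imprinted genes that were called, Atp10a, a phospholipid flippase of the Prader-Willi region that holds Ndn, rose 1.71-fold (11.13 ± 0.13 in PDGF-BB cells and 10.36 ± 0.16 in control cells, SD, n = 3 each, adjusted p = 0.0034, limma). Gab1, a docking protein of receptor tyrosine kinases imprinted in the mouse placenta, was 1.57-fold lower (10.92 ± 0.07 in PDGF-BB cells and 11.58 ± 0.15 in control cells, adjusted p = 0.0033, limma). Slc22a18, a transporter near Cdkn1c, had a log2 change of -0.55 (adjusted p = 0.020), a call lost without PDGF-BB array 2 (0.064) or 3 (0.067). Tssc4 and Ascl2 of that cluster had changes of 0.33 and 0.28, and each call was lost without control array 2 (adjusted p = 0.133 and 0.069) and without PDGF-BB array 1 (0.105 and 0.075) or 2 (0.128 and 0.066). Tssc4 also lost it without control array 3 (0.129), with PDGF-BB array 3 left out (0.110) and with an intensity trend (0.055), and Ascl2 without control array 1 (0.057). Both Ascl2 means, 7.17 in PDGF-BB cells and 6.89 in control cells, lay under the level of markers taken as absent.

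Several well-known imprinted genes did not pass. For Peg10 the log2 difference was 0.04 (-0.44 to 0.53 as 95% interval, with an adjusted p = 0.92 in limma), and that of its neighbour Sgce, ε-sarcoglycan, was -0.22 (-0.63 to 0.18, adjusted p = 0.44). Gnas, the stimulatory G protein α subunit, had one of -0.07 (-0.19 to 0.06, adjusted p = 0.46). Phlda2, a placental growth restrainer, had both means (7.10 in PDGF-BB cells and 7.09 in control cells) under the level of markers taken as absent. Rian and Kcnq1ot1 were not analysed here. With the block, Rasgrf1, a Ras exchange factor, passed (log2 change 1.02, adjusted p = 0.0049, and 0.089 without the block), as did Htr2a, a serotonin receptor (0.043, and 0.056 without the block), and Mcts2 (0.032, and 0.089 without the block). These 3 were named after their values were seen.

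**Figure D5:**
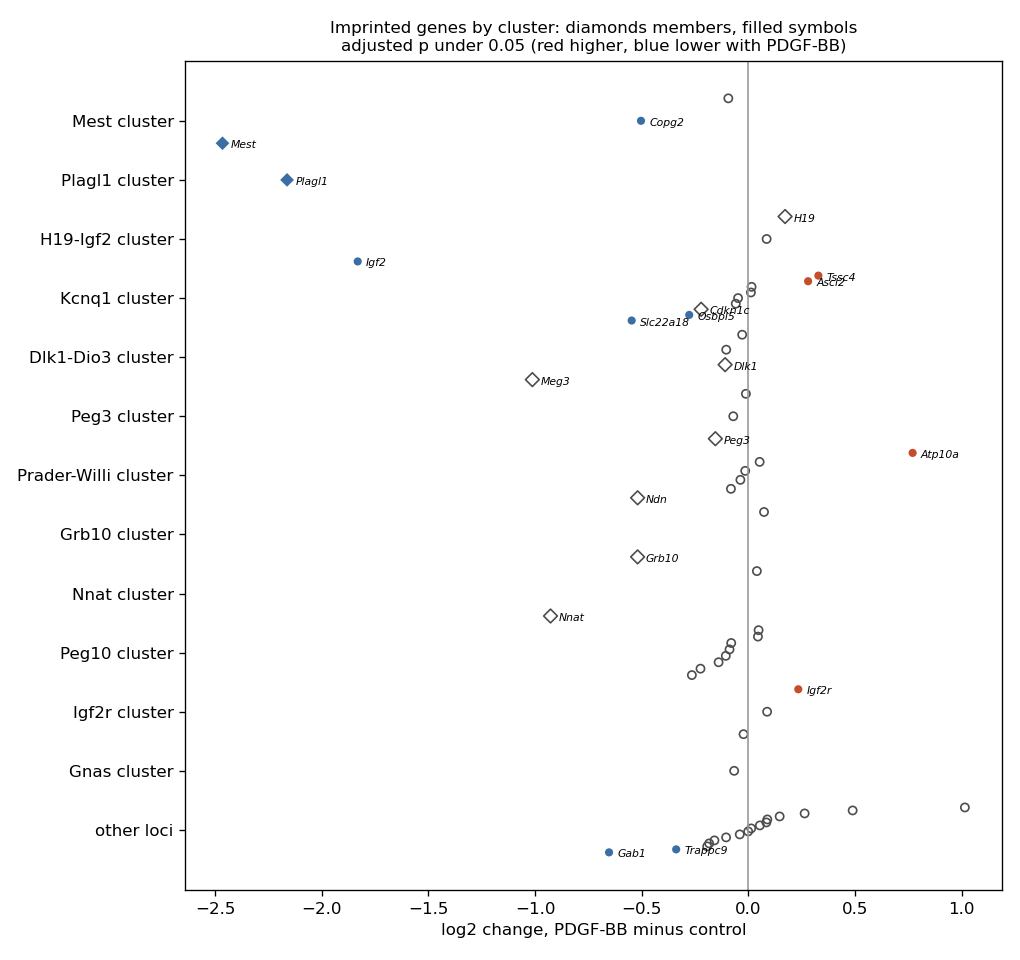
Log2 change, PDGF-BB minus control (horizontal axis), of the 10 genes (diamonds) and 51 other imprinted genes (circles) by imprinted cluster. Filled symbols passed an adjusted p under 0.05, red for higher and blue for lower with PDGF-BB; Mest, Plagl1 and Igf2 lie farthest left.

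The 2 nearest measured genes on each side of the 10, in RefSeq's order, gave 36 distinct neighbours, of which 2 rose, 4 fell and 30 did not pass, where 10.1% of all named genes rose and 11.4% fell. Copg2, a coatomer subunit gene that overlaps Mest in the annotation, was 1.42-fold lower (log2 -0.50, with -0.70 to -0.31 as 95% interval, and an adjusted p = 0.0066 in limma) beside -2.47 for Mest. Whether probes of the 2 genes share sequence was not tested. Cep41, on the other side of Mest, had a change of 0.08 (adjusted p = 0.71). Beside Plagl1, Ltv1, a ribosome assembly factor, rose (log2 change 0.55, adjusted p = 0.021), and Sf3b5, a splicing factor subunit, had a change of 0.27 (adjusted p = 0.054, and 0.042 with the block). Fignl1, a DNA repair ATPase near Grb10, rose (1.55, adjusted p = 0.013). The neighbours of Ndn and Nnat named in the imprinted list, Magel2, Mkrn3, Ube3a and Blcap, did not pass, with changes of -0.08 to 0.05. Of these, Mkrn3 (6.30 in PDGF-BB cells and 6.38 in control cells) lay under the level of markers taken as absent. Magel2 (7.47 in PDGF-BB cells and 7.42 in control cells) lay about at that level.

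Some of these loci carry microRNAs, which repress mRNAs matched by their seed (bases 2 to 8, in capitals). Meg3 holds Mir770 and Mir1906-1, which were not analysed here and whose sequences are not shown. Mature sequences from RefSeq (GRCm38.p6) are given for those inside Mest and Igf2, the hosts that fell, and inside H19.
miR-335-5p: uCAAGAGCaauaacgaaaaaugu
miR-335-3p: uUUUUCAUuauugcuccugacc
miR-675-5p: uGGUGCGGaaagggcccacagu
miR-675-3p: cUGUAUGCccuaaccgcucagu
miR-483-5p: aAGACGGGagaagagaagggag
miR-483-3p: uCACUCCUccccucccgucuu
The 6 seeds all differ. The array's probe set for Mir335 inside Mest read 5.76 ± 0.02 in PDGF-BB cells and 5.77 ± 0.02 in control cells (SD, n = 3 each), under the level of markers taken as absent. That for Mir483 inside Igf2 read 9.10 ± 0.09 in PDGF-BB cells and 9.03 ± 0.07 in control cells (log2 change 0.08, 95% interval -0.09 to 0.24, adjusted p = 0.55, limma). Mir675 was not analysed here, and total RNA arrays of this kind need not report mature microRNAs. Between Dlk1 and Dio3, the maternally expressed cluster that Meg3 opens, 40 of 61 microRNA genes were measured. In limma 0 rose and 0 fell, where 10.1% of all named genes rose and 11.4% fell. With the block 0 were called, where 23.4% of all named genes were, and 0 had an unadjusted p under 0.05 without it. Of the 40, 12 lay above the level of markers taken as absent in either group. Across the 40, the part of the variation between array numbers ranged from 12.8% (Mir431) to 93.7% (Mir539). Mir377, under that level in each group, had an SD of 1.61 in PDGF-BB cells and 1.41 in control cells.

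Relatives of the 10 genes that are not imprinted also changed. Of 18 listed genes 1 rose and 6 fell (38.9%, where 21.5% of all named genes were called). The list was chosen with earlier results of these data known, so this share is only a description. Jag1, the NOTCH ligand, fell most, to 8.63 ± 0.11 in PDGF-BB cells, against 9.91 ± 0.08 in control cells (SD, n = 3 each, log2 change -1.28, adjusted p = 4.7e-04, limma). Plag1, the paralog of Plagl1, had a log2 change of -0.71 (adjusted p = 0.014), a call lost without PDGF-BB array 1 (0.056) or 3 (0.051). Grb14, the paralog of Grb10, was 1.58-fold lower (log2 change -0.66, adjusted p = 0.0072). Of the CIP/KIP inhibitors, Cdkn1b (p27) was 1.48-fold lower (log2 change -0.56, adjusted p = 0.0093), and Cdkn1a (p21) had a change of 0.15 (95% interval -0.01 to 0.30, adjusted p = 0.17). Notch1 had a change of 0.50 (adjusted p = 0.046), a call lost without control array 2 (0.061) or PDGF-BB array 1 (0.097), 2 (0.124) or 3 (0.115), and with repeated quantile normalization (0.055).

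The insulin and IGF1 receptors, on which Grb10 and IGF2 act, fell. Of 17 measured genes of the insulin and IGF axis and the CDK2 complex, 6 rose and 6 fell (70.6% called, where 21.5% of all named genes were). Cdk2, Ccne1, Ccne2 and Ccna2, the genes of the CDK2 complex, were among those that rose. As earlier results of these data were known when the list was chosen, the share is only a description. Insr, the insulin receptor, was 1.57-fold lower (10.16 ± 0.08 in PDGF-BB cells and 10.81 ± 0.03 in control cells, SD, n = 3 each, adjusted p = 0.0014, limma). Igf1r, the IGF1 receptor, was 1.46-fold lower (adjusted p = 0.011), and Irs2, a substrate of both, 1.57-fold lower (adjusted p = 9.6e-04). Igfbp6, a binding protein that prefers IGF2, was 1.73-fold lower (adjusted p = 0.0086). The cyclins Ccne1 and Ccne2, partners of CDK2, the kinase that p57 inhibits, rose 2.31-fold (adjusted p = 0.0017) and 3.20-fold (0.0082). Ccna2, cyclin A2, had a log2 change of 1.01 (adjusted p = 0.044), which was lost without control array 2 (0.094) or any 1 PDGF-BB array (0.105 to 0.115) and with an intensity trend (0.070). The binding protein genes Igfbp5 and Igfbp3 had changes of 0.90 (adjusted p = 0.034) and -0.64 (0.045). The Igfbp5 call was lost without any 1 control array (0.065 to 0.102), without PDGF-BB array 3 (0.058) and with an intensity trend (0.053). Of the 6 fits on 5 arrays, that of Igfbp3 held in those lacking control array 3 (0.030) or PDGF-BB array 1 (0.044), and in the remaining 4 the adjusted p was 0.098 to 0.120.

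Of 17 listed factors tied to DNA methylation or imprints, 5 rose and 2 fell (41.2%, where 21.5% of all named genes were called). This list, too, was chosen with earlier results known, and the share is only a description. Those that rose included Dnmt1, the maintenance DNA methyltransferase (11.36 ± 0.13 in PDGF-BB cells and 10.38 ± 0.15 in control cells, SD, n = 3 each, adjusted p = 0.0017, limma), Uhrf1, which brings it to replicating DNA (3.40-fold, adjusted p = 0.0036), and Hells, a chromatin remodeller (4.24-fold, adjusted p = 0.0050). Zfp57, whose hexamer is marked in the promoters above, was 1.57-fold lower (11.70 ± 0.13 in PDGF-BB cells and 12.34 ± 0.04 in control cells, adjusted p = 0.0024). Zfp445, a second imprint-binding zinc finger, had a log2 change of -0.23 (adjusted p = 0.040), which was lost in each fit that leaves out 1 array (0.054 to 0.132), with the block (0.071) and with an intensity trend (0.063). Dnmt3l, a cofactor of imprint establishment in germ cells, had a change of 0.37 (adjusted p = 0.015), with means of 7.51 in PDGF-BB cells and 7.14 in control cells, about the level of markers taken as absent. DNA methylation itself was not measured, and Dnmt1, Uhrf1 and Hells are also genes of proliferating cells.

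Markers moved beside these changes. All 10 proliferation markers measured rose, their summed log2 values ranging from 114.7 to 115.7 in PDGF-BB arrays and from 98.6 to 108.0 in control arrays. Of 6 smooth muscle markers 4 fell and 1, Smtn, rose (adjusted p = 0.044 in limma, lost with the block at 0.067). Their sums were 54.6 to 57.5 in PDGF-BB arrays and 61.4 to 63.9 in control arrays. Of 8 adipocyte markers 3 rose, Fabp4 (log2 change 3.02), Lpl (1.35) and Pparg (0.98). Adipoq, Plin1, Cidec, Lep and Cebpa did not pass, with changes of -0.08 to 0.13. The adipocyte sums were 68.7 to 69.3 in PDGF-BB arrays and 62.8 to 64.4 in control arrays. Over all named genes 10.1% rose and 11.4% fell. Genes near Mest and H19 in their 6 deviations from the control mean were sought only outside the 10 genes and genes with provisional (gene-model) names. Tagln, a smooth muscle marker, lay nearest to Mest (root mean square difference 0.444 log2 units). It read 7.90 to 8.55 in the PDGF-BB arrays, against 9.70 to 11.13 in the control arrays. Prss23 and Atp2b4 followed, at 0.641 and 0.644. For H19 the nearest were Ighv8-12, Mir339 and Serpinb9f, at 0.290, 0.310 and 0.329, of which the first and last read below 6 on all 6 arrays, under the level of markers taken as absent. The part of these markers in the changes of the 10 genes was not tested.

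Across the series the median log2 value of an array was 8.43 to 8.46, and arrays correlated across genes at 0.994 to 0.996 within groups and 0.973 to 0.986 between them. Of 10 pericyte markers, 8 lay above the level of markers taken as absent in each group. So did all 9 fibroblast and all 6 smooth muscle markers, 6 of 8 adipocyte markers and 4 of 7 myoblast markers. The fibroblast markers had a mean level of 12.5 to 12.8 in PDGF-BB arrays and 12.1 to 12.2 in control arrays. For the pericyte markers it was 9.1 to 9.2 in each group. Rgs5, 1 of the 8, read 7.71 in PDGF-BB cells and 7.77 in control cells, close to the level of 7.47. Pdgfrb, the PDGF receptor β, read 12.85 ± 0.09 in PDGF-BB cells and 12.98 ± 0.11 in control cells (SD, n = 3 each), while the mural marker Des was under that level. Of 8 endothelial, 7 macrophage and 7 neural markers, 3, 3 and 2 lay above it in PDGF-BB cells and 2, 2 and 3 in control cells. None of the endothelial or neural markers was called, nor any of 7 myoblast markers, but with the block the neural markers Tubb3 and Map2 fell (adjusted p = 0.036 and 0.035, against 0.149 and 0.228 without it), while 2 macrophage markers rose and 1 fell. Of 9 fibroblast markers 3 rose and none fell (2 rose with the block, which ended the call of Col3a1, at an adjusted p of 0.054 against 0.044 without it), with sums of 112.2 to 115.5 in PDGF-BB arrays and 109.0 to 110.0 in control arrays.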

How the data were processed

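Total RNA of 6 pericyte samples, 3 given PDGF-BB and 3 control, was measured on 1-colour arrays. The authors deposited log2 expression values. Per the submitters' processing notes they come from RMA, a method of background correction, quantile normalization and probe set summary. No source used here gives its version or probe set definition, and the range of 4.08 to 14.2 fits a log2 scale. GEO's platform annotation names 20239 of 21225 probe sets by 1 symbol and none by several; 986 are unnamed.

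Groups came from the sample titles. From these values limma 3.58.1 (R 4.3.3) fitted the group over all named genes (two-sided, Benjamini-Hochberg, adjusted p under 0.05; changes are PDGF-BB minus control). The script was tested on simulated data. Deviations from group means correlated at 0.252, 0.323 and 0.246 between same-numbered arrays, so pairs by number are described. Between arrays of different number the correlations were -0.282 to 0.007. Deviations cancel within a group, so some of these must be negative when the same-numbered ones are positive. The pairing was read from the same data and was not tested. The labels name no pairing, so the main fit left the number out, and the block was run as an alternative. Arrays give no read depth, and 3 per group limit the precision. The 10 genes and all lists were chosen with earlier results of these data known. Named are these 10 genes, fixed genes (Igf2, Igf2r and others) and up to 4 called genes per list and direction with the largest change. Also named are the 3 profiles nearest to Mest and H19, leaving out the 10 genes and genes with provisional names. Neighbours were taken by position after the data were seen. Alternatives were repeated quantile normalization, median centring, a filter at the 50th percentile, unnamed probe sets, an intensity trend with robust priors, the replicate block and leaving out each array.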

Additional observations from a re-analysis of the deposited data

How the results depend on the processing

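The call of Igf2, Jag1, Insr, Irs2, Dnmt1, Uhrf1, Hells and Zfp57 and its direction held under each alternative run. With the replicate block 5 rather than 2 of the 10 genes fell and 7 rather than 4 of the other imprinted genes rose; of the genes named by the rule, the block ended the call of Zfp445 and added Atp2b4. With repeated quantile normalization 0 rather than 1 relative rose. With an intensity trend 1 rather than 2 of the factors tied to DNA methylation or imprints fell. Leaving out 1 array, 1 to 4 of the 10 genes fell. In the same fits 1 to 3 of the other imprinted genes and 0 to 1 of the relatives rose. Of the factors tied to DNA methylation or imprints 1 fell in each case (range 1 to 1). Over all genes 1514 to 2188 fell, the lowest counts being 1516 and 1514 without PDGF-BB array 1 and 2. Such fits rest on 5 arrays, and the cause was not tested. Neither rescaling moved the median change of all genes by over 0.1. No order can be read among values near or under the level of markers taken as absent. Among others, this bears on Mest with PDGF-BB, Cdkn1c, Ascl2, Phlda2, Dnmt3l, Magel2 and Mkrn3.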
